A study of Mus musculus with 48 samples.

Results

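A list of 10 genes of the brain vasculature was followed, and the rows of 8 of them were read from the Q3-normalized tables, which hold 15782 genes: Cldn5, Ocln, Slc2a1, Mfsd2a, Abcb1a, Kdr, Flt1 and Vegfa. Pecam1 and Tek were not analysed here. The rows were taken by gene name, with no threshold on their values, from a list written with earlier results of these data known. The values came from GeoMx digital spatial profiling (DSP), in which probes bound to mRNA on a tissue section carry a tag that is cut off by light inside a chosen outline and then sequenced. Each outline is called an area of illumination (AOI), and its tags come from every cell inside it. The AOIs held 140 to 640 nuclei and the outlines followed the region, not the vessels, so the vascular genes were read in mixed brain tissue and not in isolated endothelium.

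The mice were male C57BL/6, 10 weeks old at the launch. FLT-SAL mice spent 35 days on the International Space Station with saline injections, and FLT-BuOE mice made the same flight with MnTnBuOE-2-PyP5+ (BuOE), a manganese porphyrin that mimics superoxide dismutase, at 1 mg/kg in 0.2 mL under the skin, first 7 days before launch and then weekly. GC-SAL and GC-BuOE mice stayed on the ground in flight cages with the same food, light, temperature and injections, on a schedule that started 3 days later. Each group had 3 mice, and each mouse gave 1 AOI in each of 4 regions: the Cornu Ammonis 1 (CA) and the dentate gyrus (DG) of the hippocampus, the frontal cortex (FCT) and the cortex (CT). The brains of FLT-SAL and FLT-BuOE mice were taken on Earth, after landing and a transfer that ended no more than 20 h after splashdown. Flight and ground were thus compared after the return and not in orbit. The part of landing and transfer in their differences was not tested. All 12 mice and 48 AOIs were used. The 3 sections of a group lay on 1 slide, so slide and group cannot be told apart.

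Brain capillaries are lined by endothelial cells whose tight junctions and selective carriers form the blood-brain barrier. Cldn5 (claudin-5) and Ocln (occludin) are strand proteins of the tight junction. Slc2a1 (GLUT1) carries glucose into the brain, Mfsd2a carries lysophosphatidylcholine lipids and restrains vesicle traffic across the endothelium, and Abcb1a (P-glycoprotein) pumps drugs back into the blood. Vegfa is the secreted ligand that drives vessel growth and permeability, and in the brain it is made largely by astrocytes and neurons. Kdr (VEGFR2) is its main signalling receptor on endothelium, and Flt1 (VEGFR1) binds Vegfa tightly and acts in part as a decoy. In mouse GRCm38, by the GENCODE annotation, Kdr lies on chromosome 5 from 75932827 to 75978458 (minus strand), Flt1 on chromosome 5 from 147561604 to 147726011 (minus strand), Vegfa on chromosome 17 from 46016993 to 46032369 (minus strand), and Mfsd2a on chromosome 4 from 122946850 to 122961188 (minus strand). Slc2a1 lies on chromosome 4 from 119108711 to 119137983 (plus strand), Cldn5 on chromosome 16 from 18776847 to 18778262 (plus strand), Abcb1a on chromosome 5 from 8660077 to 8748575 (plus strand), and Ocln on chromosome 13 from 100496507 to 100552718 (minus strand).

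Depth ranged from 322629 to 1579380 counts per AOI (median 652040), with a median of 991426 in FLT-SAL and of 548888 to 639735 in the other groups. Upper-quartile (Q3) normalization had brought the upper quartile of every AOI to 40.02. The region labels were checked against markers: in DG against CA, Prox1, a dentate granule cell gene, differed by 1.79 on the log2 scale and Pou3f1, a CA1 pyramidal cell gene, by -2.34. Of 22 general endothelial markers 15 were measured, and their summed Q3-normalized count ran from 375 to 467 in DG and from 407 to 526 in CA. Against the negative probe the order was the opposite, with a median of their mean ratio of 2.37 in DG and 1.75 in CA.

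The negative probe, which has no target in the mouse and so measures background, set the scale for every member. Its Q3-normalized value was 16.1 to 20.9 in CA, 13.3 to 16.8 in CT, 12.1 to 18.0 in FCT and 9.24 to 13.5 in DG, so the same normalized count stood further above background in DG than in CA. Over the 48 AOIs the median ratios of the 8 vascular genes to it ran from 1.43 (Kdr) to 2.53 (Cldn5). The whole counts behind the members were between 5 and 76 per AOI.

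Cldn5 stood furthest above its background, with a median ratio to the negative probe of 2.53 over the 48 AOIs and a ratio over 1.5 in 47 of them. Vegfa had a median ratio of 2.09 and was over 1.5 in 40 AOIs. Mfsd2a (median 1.90) passed 1.5 in 35 AOIs, Flt1 (1.73) in 36 and Slc2a1 (1.72) in 32. Ocln, Abcb1a and Kdr were the weakest, over 1.5 in 26, 24 and 18 AOIs. Kdr was at or below the negative probe in 5 AOIs and Abcb1a in 8. These ratios describe each probe against background and do not rank the genes by transcript number, since probes differ in how well they bind.

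The region decided how many members could be read above background. In DG all 8 had a median ratio over 1.5, in FCT 7, in CT 5 and in CA only Cldn5 (2.20) and Vegfa (1.51). In CA the median ratio of Abcb1a was 0.998, that of Kdr 1.17, that of Mfsd2a 1.29 and that of Slc2a1 1.30, and no CA value of Slc2a1 exceeded 1.5. The whole table moved in the same way: 99.1% of all genes had a median ratio over 1.5 in DG against 58.9% in CA. A group difference of these 4 genes in CA was therefore a difference between values at or near background.

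**Figure D1:**
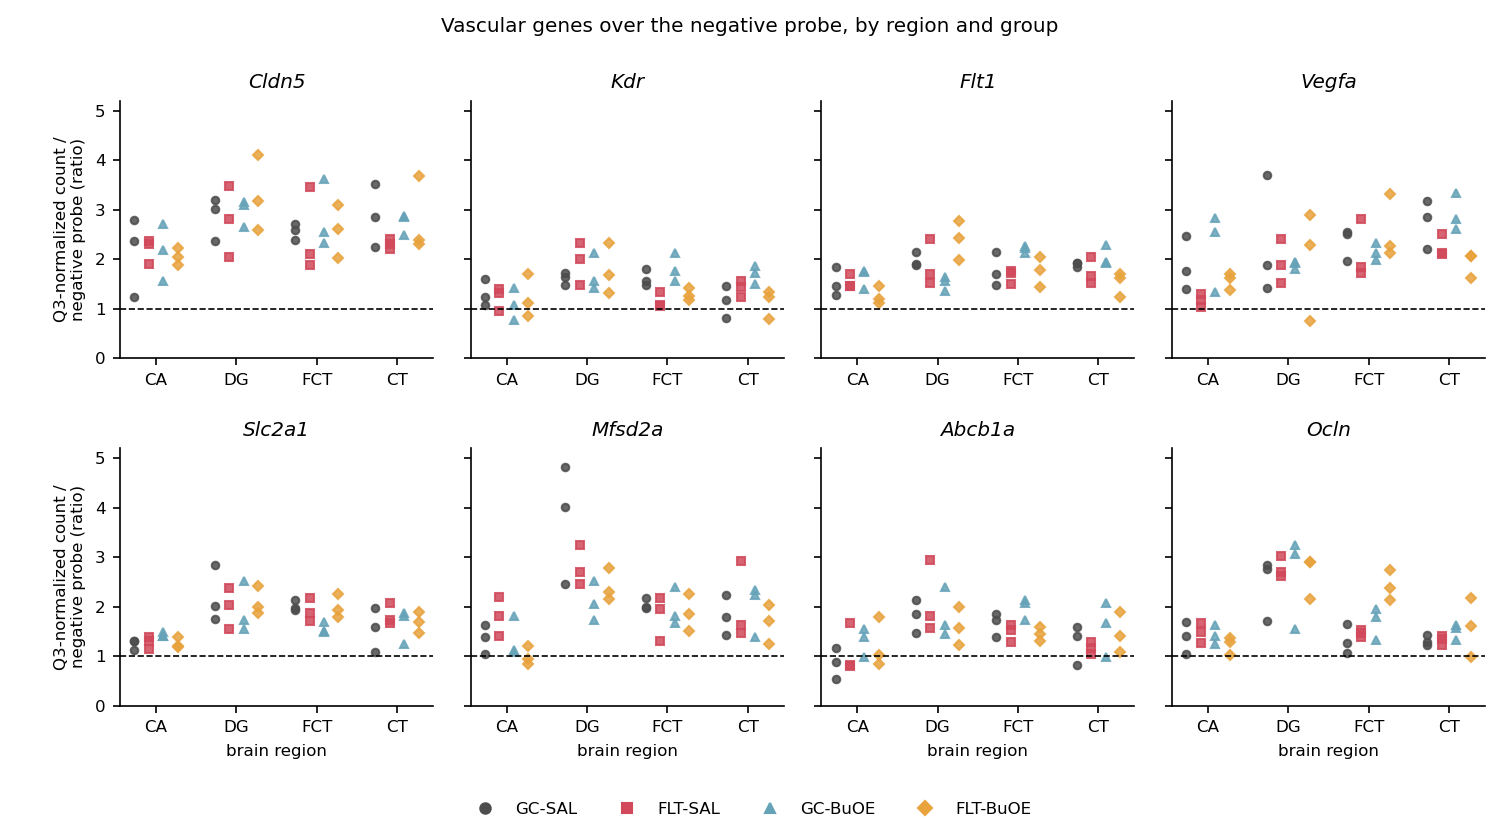
Ratio of the Q3-normalized count to the negative probe (linear axis) of the 8 vascular genes in CA, DG, FCT and CT, 1 point per mouse, coloured and shaped by group. The dashed line marks the negative probe (ratio 1). Cldn5 lies above the line in all 48 AOIs, Abcb1a lies on both sides of it in CA, and ratios of most members are higher in DG than in CA.

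Over the 12 AOIs of a region, Vegfa averaged 32.1 ± 11.7 Q3-normalized counts in CA (SD, as for all values here, n = 12), 22.5 ± 7.66 in DG, 32.4 ± 5.80 in FCT and 36.1 ± 6.34 in CT. Its receptors varied less: Kdr averaged between 19.7 ± 4.37 in DG and 22.4 ± 4.96 in CA, and Flt1 between 21.7 ± 4.93 in DG and 27.7 ± 4.70 in CA. Flt1 thus had its lowest average in DG, as Vegfa did, and the negative probe was lowest there too. As a ratio to the probe, the median of Flt1 was 1.89 in DG, 1.88 in CT, 1.77 in FCT and 1.46 in CA. Kdr was about as low in CT (19.8 ± 4.61) as in DG.

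The junction genes went in different directions between regions. Cldn5 averaged 33.1 ± 5.37 in DG and between 37.1 ± 8.21 and 39.6 ± 8.56 in the other regions, whereas Ocln averaged 29.0 ± 4.99 in DG and 21.2 ± 4.62 in CT. Of the carriers, Mfsd2a ran from 25.7 ± 8.18 in CA to 30.8 ± 9.24 in DG, Slc2a1 from 22.9 ± 4.41 in DG to 26.6 ± 4.33 in FCT, and Abcb1a from 20.0 ± 5.05 in CT to 23.4 ± 4.59 in FCT. For Slc2a1, Abcb1a and Kdr these averages differed by less than 1 SD between any pair of regions.

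Spread between mice was near counting error for most members. The squared deviation of the counts from their group's expectation, divided by that expectation, averaged 1.76 per degree of freedom for Cldn5, 1.60 for Vegfa and 1.45 for Mfsd2a, where 1 is pure counting error. It was 0.465 for Flt1, 0.67 for Slc2a1, 0.906 for Kdr, 0.932 for Ocln and 1.16 for Abcb1a, against a median of 1.09 over the 10471 genes with mean counts in the same range. For Flt1, Slc2a1, Kdr and Ocln the mice of a group thus differed by no more than the sampling of so few counts.

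Spaceflight and BuOE were first compared within each region, which asks whether flight, the compound or both together changed the vascular genes. Differences are log2 fold changes of the Q3-normalized count plus 1. A gene was called at a Benjamini-Hochberg adjusted p below 0.05 (limma, over all 15782 genes) and a change beyond 1.5-fold, with no fold threshold for the interaction. None of the 160 tests of members in single regions was called. For FLT-SAL against GC-SAL 0 of 32 pairs of member and region were called, where 0.136% of all genes were. FLT-BuOE against FLT-SAL gave 0 of 32 (0.0269% of all genes), GC-BuOE against GC-SAL 0 of 32 (0.00158%), FLT-BuOE against GC-BuOE 0 of 32 (0.0459%) and the interaction of flight and BuOE 0 of 32 (0.00792%). With so few genes called in all, a count of 0 among 8 does not set them apart from other genes. The edgeR quasi-likelihood test and DESeq2 on whole counts also called 0 members. At an unadjusted p below 0.05 the counts of 32 were 2, 1, 4, 7 and 4 in the same order, against 6.27%, 6.14%, 5.05%, 7.39% and 5.51% of all genes.

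The precision was limited. Standard errors of these single-region differences ran from 0.186 to 0.341, and the 95% confidence interval lay inside a 2-fold change in either direction for 31 of 32 pairs in FLT-SAL against GC-SAL, 31 in FLT-BuOE against FLT-SAL, 29 in GC-BuOE against GC-SAL and 26 in FLT-BuOE against GC-BuOE. Differences smaller than these intervals could not be seen in a single region.

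Groups without overlap, where all 3 mice of one lay above all 3 of the other, were no more frequent among members than among all genes in FLT-SAL against GC-SAL: 1 of 32 pairs against 12.6% of all genes. The counts were 5 of 32 for FLT-BuOE against FLT-SAL (11.7% of all genes), 6 of 32 when BuOE and saline were compared on the ground (9.58%) and 9 of 32 when flight and ground were compared under BuOE (10.9%). Of those 9, 8 were lower in flight: Flt1, Slc2a1 and Ocln in CA, Kdr, Flt1 and Abcb1a in FCT, and Kdr and Vegfa in CT. Flt1 in DG was the exception. In CA the negative probe was itself lower in FLT-BuOE than in GC-BuOE mice (16.1 to 18.8 against 18.9 to 20.9). It was also lower in FCT (12.1 to 13.0 against 13.1 to 14.5). As ratios to it, Flt1 and Ocln in CA overlapped, while Slc2a1 in CA and Kdr, Flt1 and Abcb1a in FCT did not. The comparisons above share groups, each group entering more than one.

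Vegfa had a negative difference between flight and ground in 4 of 4 regions with saline and in 3 of 4 with BuOE. With saline, the FCT difference was only -0.005 (SE 0.207), so its sign carries no weight. Mean saline counts of Vegfa in FCT were even slightly higher for flight mice (34.1) than for ground mice (33.9). In CA the GC-SAL mice had 47.7, 24.8 and 34.1 Q3-normalized counts and the FLT-SAL mice 20.0, 19.5 and 26.2. The GC-BuOE mice had 54.8, 48.03 and 28.1, and the FLT-BuOE mice 26.2, 29.6 and 26.1. In both pairs 1 ground mouse fell within the range of the flight mice, so the groups overlapped. Flight against ground was -0.64 (SE 0.257) with saline and -0.61 (SE 0.257) with BuOE, and neither passed the test (limma adjusted p = 0.568 and 0.601). FLT-SAL values in CA were 1.04 to 1.30 times the negative probe, and GC-SAL values 1.40 to 2.47 times.

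In CT, where Vegfa was read well above background, the GC-SAL mice had 46.1, 38.8 and 35.4 counts and the FLT-SAL mice 35.7, 33.02 and 33.4. The GC-BuOE mice had 45.7, 39.4 and 38.5 and the FLT-BuOE mice 29.7, 23.3 and 33.9. The 2 BuOE groups did not overlap, and the difference was -0.51 (SE 0.187, limma adjusted p = 0.59). With saline the difference was -0.22 (SE 0.187, adjusted p = 0.999), and the groups overlapped by a single mouse. In DG and FCT flight against ground lay between -0.25 and 0.13, all with standard errors of 0.207 or more.

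Averaging the logarithms over the 4 regions gave 1 value per mouse and narrower intervals. On the count scale the GC-SAL mice had Vegfa averages of 35.0, 32.5 and 31.0 and the FLT-SAL mice 26.7, 27.0 and 26.9. The GC-BuOE mice had 34.8, 33.6 and 28.0 and the FLT-BuOE mice 31.5, 26.4 and 21.7. The saline groups did not overlap, while 1 FLT-BuOE mouse lay among the GC-BuOE mice. Flight against ground was -0.28 (SE 0.118) with saline (limma adjusted p = 0.418) and -0.27 (SE 0.118) with BuOE (adjusted p = 0.457), and the interaction was 0.00 (SE 0.167, 95% interval -0.33 to 0.34). Averaged over saline and BuOE it was -0.28 (SE 0.0837, 95% interval -0.44 to -0.11, limma adjusted p = 0.083), short of both the adjusted p and the fold threshold. Leaving out 1 mouse at a time gave -0.34 to -0.21 with adjusted p from 0.0128 to 0.266. The lowest came without FLT-BuOE replicate 1 and the highest without FLT-BuOE replicate 3, which held the lowest Vegfa value of all (8.89 counts in DG). Astrocyte and neuronal markers were summed, as markers of the cells that make most Vegfa in brain. On the Q3 scale their median sums were not lower in FLT-SAL than in GC-SAL mice in any region. In CA the 7 astrocyte markers summed to between 419 and 536 in FLT-SAL mice and to between 389 and 461 in GC-SAL mice, and the 6 neuronal markers to between 1284 and 1464 and between 980 and 1245. Against the negative probe the median ratios in CT were lower in FLT-SAL mice (5.99 against 6.38 for astrocyte and 19.6 against 19.9 for neuronal markers). In FCT they were lower for astrocyte markers (4.81 against 4.86). In CA and DG, and in FCT for neuronal markers, they were higher. The part of these cells in the Vegfa values was not tested.

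Mfsd2a was the member with the largest single-region differences. In CA the FLT-SAL mice had 30.6, 41.0 and 28.5 counts and the FLT-BuOE mice 15.2, 14.8 and 22.6, without overlap. The GC-SAL mice had 20.0, 28.6 and 26.7 and the GC-BuOE mice 21.1, 21.3 and 37.9, and both ground groups overlapped with the FLT-SAL mice. FLT-BuOE against FLT-SAL was -0.90 (SE 0.283, limma adjusted p = 0.594). The FLT-BuOE values were 0.94, 0.85 and 1.20 times the negative probe, and the difference became -1.65 (adjusted p = 0.85) when the probe was subtracted. FLT-BuOE replicates 1 and 2 lay under the probe and were then set to a floor. A larger constant than 1 was added before the logarithm, so the size of this difference depends on both choices. Over all alternatives it ran from -1.65 to -0.74, with adjusted p from 0.361 to 1.

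In DG the order was different. The GC-SAL mice had 44.2, 52.1 and 33.02 counts, the FLT-SAL mice 31.1, 30.1 and 30.7, the GC-BuOE mice 28.9, 21.3 and 18.9 and the FLT-BuOE mice 25.0, 28.8 and 25.6. Here the GC-SAL group stood above the other three, and on this scale no GC-SAL mouse overlapped with FLT-SAL or GC-BuOE. As ratios to the negative probe the GC-SAL mice had 4.02, 4.83 and 2.45. The FLT-SAL mice had 3.25, 2.46 and 2.69 and the GC-BuOE mice 2.51, 1.73 and 2.045, so GC-SAL overlapped with both. GC-BuOE against GC-SAL was -0.87 (SE 0.214, limma adjusted p = 0.733) and FLT-SAL against GC-SAL -0.45 (SE 0.214, adjusted p = 0.65). The change with flight in saline mice differed between DG and CA by -0.85 (SE 0.351, limma adjusted p = 0.999). No gene was called in that kind of test (0 of 48 pairs for the members and 0% of all genes; 2 of 48 members and 4.36% of all genes at an unadjusted p below 0.05).

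Over the 4 regions Mfsd2a was 22.5, 19.7 and 26.0 in FLT-BuOE mice and 27.3, 32.1 and 31.7 in FLT-SAL mice. It was 26.1, 34.8 and 30.0 in GC-SAL mice and 26.1, 21.0 and 30.1 in GC-BuOE mice. The flight groups did not overlap, and the difference had the same sign in 4 of 4 regions (-0.90 in CA to -0.21 in DG). FLT-BuOE against FLT-SAL was -0.41 (SE 0.127, 95% interval -0.66 to -0.16, limma adjusted p = 0.231). On the ground BuOE against saline was -0.23 (SE 0.127, adjusted p = 0.998), and the interaction was -0.18 (SE 0.179, adjusted p = 0.936), so a difference between the flight and ground responses was not shown.

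**Figure D2:**
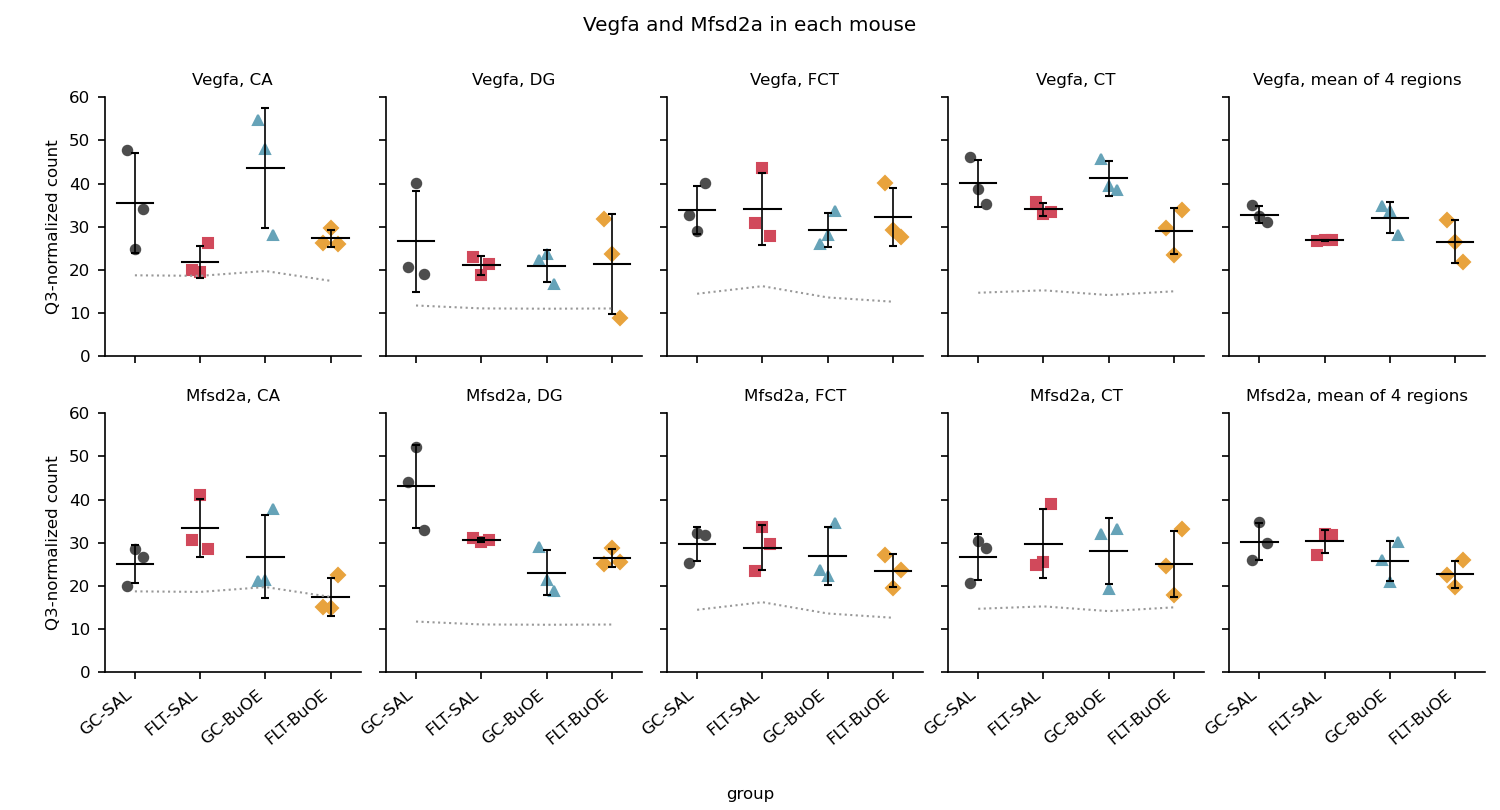
Q3-normalized counts (linear axis) of Vegfa and Mfsd2a in each mouse, by region and as the mean of 4 regions (averaged as log2 and returned to counts). Points are mice, horizontal bars the mean and error bars the SD of 3 mice, and the dotted line joins the mean negative probe of each group. The 3 FLT-SAL mice had Vegfa averages of 26.7 to 27.0, below all GC-SAL mice (31.0 to 35.0), and Mfsd2a was highest in GC-SAL mice in DG and in FLT-SAL mice in CA.

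The receptors, the junction proteins and the other carriers gave smaller or less regular differences. For Kdr the averages over regions were 20.3, 15.3 and 18.8 in FLT-BuOE mice and 23.1, 20.9 and 21.5 in GC-BuOE mice, without overlap, and the difference was -0.26 (SE 0.138, limma adjusted p = 0.566). Flt1 against the same control was -0.54 (SE 0.252) in CA, -0.43 (SE 0.211) in FCT and 0.64 (SE 0.255) in DG, with adjusted p between 0.451 and 0.683. The differences of Flt1 thus had both signs. In FCT, Kdr was 17.2, 15.1 and 16.3 in FLT-BuOE mice and 20.6, 28.2 and 25.5 in GC-BuOE mice, again without overlap, at -0.57 (limma adjusted p = 0.609).

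BuOE against saline on the ground gave averages without overlap for Kdr and Abcb1a. Kdr was 20.6, 20.8 and 19.8 in GC-SAL mice, just under the GC-BuOE mice, and the difference was 0.09 (SE 0.138). Abcb1a was 21.2, 15.6 and 21.5 in GC-SAL mice and 22.5, 23.7 and 23.2 in GC-BuOE mice, a difference of 0.25 (SE 0.145, limma adjusted p = 0.998). In flight the same gene was 24.9, 18.6 and 18.9 with saline and 22.8, 16.7 and 18.6 with BuOE, so the flight groups overlapped.

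Cldn5, the member read best, had averages of 40.9, 36.4 and 34.6 in GC-SAL mice, 37.0, 38.4 and 32.4 in FLT-SAL mice, 38.3, 41.9 and 32.6 in GC-BuOE mice and 32.5, 38.0 and 37.7 in FLT-BuOE mice. All 4 groups overlapped, and its 4 group differences lay between -0.06 and 0.01 (SE 0.1111). The 95% interval of FLT-SAL against GC-SAL was -0.28 to 0.17. Ocln was 20.4, 23.5 and 23.6 in GC-SAL mice and 26.7, 24.9 and 23.8 in FLT-SAL mice, 0.15 higher in flight (SE 0.128, limma adjusted p = 0.826). Slc2a1 was 20.6, 25.8 and 28.5 in GC-SAL mice and 23.7, 26.2 and 27.3 in FLT-SAL mice, with overlap, and differed by 0.05 (SE 0.127). Abcb1a differed by 0.09 (SE 0.145) in the same comparison.

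None of the 48 tests of members on these averages was called. The shares of all genes called were 0.101% for FLT-SAL against GC-SAL, 0.0317% for FLT-BuOE against FLT-SAL, 0% for GC-BuOE against GC-SAL, 0.0887% for FLT-BuOE against GC-BuOE, 0% for the interaction and 0.0507% for flight against ground averaged over saline and BuOE. At an unadjusted p below 0.05 there were 4 of the 48, against 8.79%, 7.9%, 4.41%, 9.31%, 6.27% and 11.1% of all genes in the same order. All 8 members had 95% intervals inside a 2-fold change in every one of these comparisons, and over the 4 comparisons of a pair of groups the interval ends lay between -0.66 and 0.54. Averages without overlap were found for 2 of 8 members in FLT-SAL against GC-SAL (14.8% of all genes), 1 in FLT-BuOE against FLT-SAL (13%), 2 in GC-BuOE against GC-SAL (9.12%) and 1 in FLT-BuOE against GC-BuOE (12.9%). In bulk tissue such as these AOIs, fewer endothelial cells and less RNA per cell cannot be told apart.

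**Figure D3:**
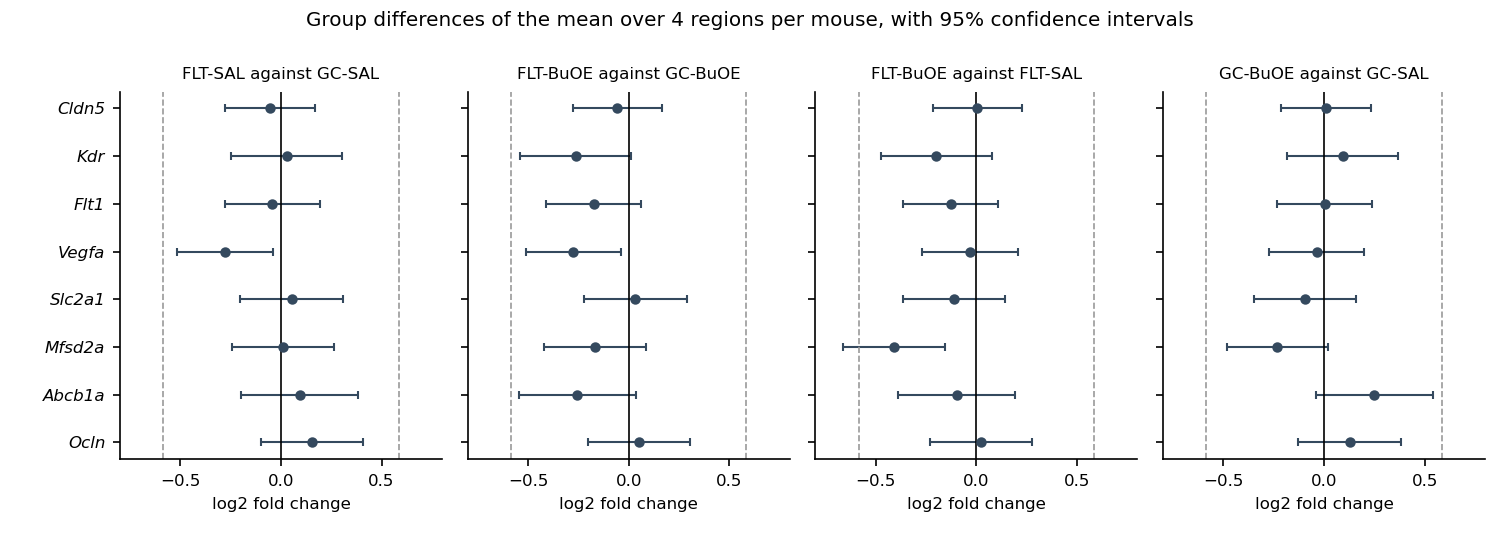
Log2 fold changes of the 8 vascular genes for 4 group comparisons, on the mean of 4 regions per mouse (3 mice a group), with 95% confidence intervals from limma. Dashed lines mark a 1.5-fold change. All points lie inside the dashed lines, Vegfa at -0.28 and -0.27 in both comparisons of flight with ground, and Mfsd2a at -0.41 in FLT-BuOE against FLT-SAL.

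Regions of the same mice were compared with the mouse as a block. Vegfa in CT against DG was the 1 call among the 48 region tests of members. CT values ran from 23.3 to 46.1 counts (median 35.5) and DG values from 8.89 to 40.02 (median 21.8). Vegfa was higher in CT in 9 of 12 mice, by 0.71 (SE 0.128, limma adjusted p = 3.19e-06). In this comparison 1 of 8 members and 5.79% of all genes were called. FCT against DG was 0.56 (SE 0.128, adjusted p = 0.000326), higher in 11 of 12 mice but inside the fold threshold, with 0 of 8 members and 4.54% of all genes called. DG against CA was -0.49 (SE 0.128, adjusted p = 0.002), with 0 of 8 members and 4.1% of all genes called.

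Other regional differences of members were smaller. Ocln had 14.2 to 31.1 counts in CT (median 21.3) and 17.8 to 37.5 in DG (median 30.2), a difference of -0.45 (SE 0.121, limma adjusted p = 0.00293) that was negative in 9 of 12 mice. Flt1 had 14.5 to 29.02 counts in DG (median 20.6) and 20.8 to 33.7 in CA (median 28.7), a difference of -0.35 (SE 0.117, adjusted p = 0.0201). Both passed the adjusted p and stayed inside the fold threshold, so neither was called. No member was called in FCT against CA (3.28% of all genes), CT against CA (3.98%) or CT against FCT (0.101%), and in CT against FCT the members differed by -0.23 to 0.15.

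Region differences depended on whether background was divided out. Dividing each AOI by its own negative probe moved the median of all genes from -0.07 to 0.64 in DG against CA, from 0.01 to -0.32 in FCT against DG and from 0.00 to -0.39 in CT against DG. On that scale 4 of 8 members (Mfsd2a, Ocln, Abcb1a and Slc2a1) were called higher in DG than in CA, where 60% of all genes were called in either direction. Ocln was called lower in FCT and in CT than in DG (1 of 8 in each, against 10.3% and 17.4% of all genes), and Vegfa in CT against DG fell to 0.32 and was no longer called. In DG against CA the shift turned 5 of 8 members from negative to positive: Vegfa to 0.21, Flt1 to 0.36, Cldn5 to 0.48, Kdr to 0.53 and Slc2a1 to 0.61. In CT against DG it turned Slc2a1 from 0.11 to -0.28, Flt1 from 0.29 to -0.09 and Cldn5 from 0.24 to -0.15.

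Division by 1 value per AOI moves every gene of that AOI alike, so distances from the median of all genes are nearly fixed by it: for Vegfa in CT against DG the distance was 0.71 before and after. Subtracting the negative probe, which can change them, gave 1.05 for Vegfa in CT against DG, -0.76 for Ocln in CT against DG (-0.45 without subtraction) and 0.66 for Mfsd2a in DG against CA (0.33 without). For Kdr in DG against CA the distance changed sign, from -0.105 to 0.113, and for Slc2a1 from -0.03 to 0.15. The size of a regional difference therefore depended on how background was handled.

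**Figure D4:**
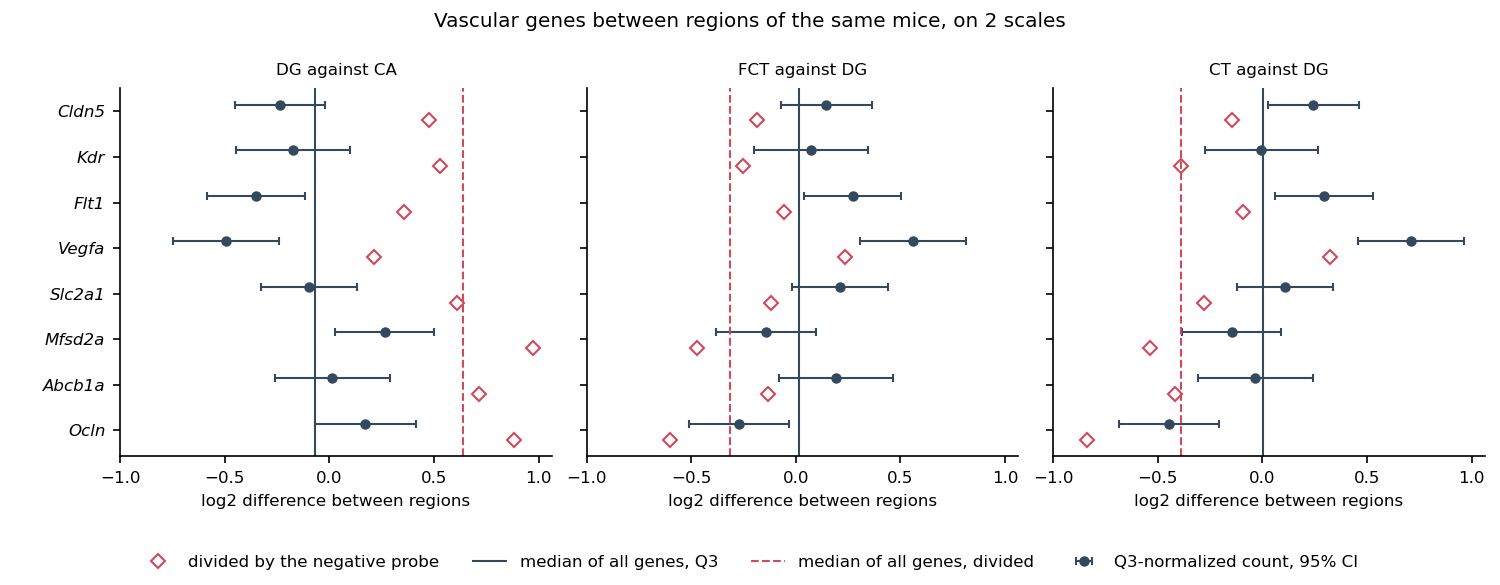
Log2 differences of the 8 vascular genes between regions of the same 12 mice. Filled circles with 95% confidence intervals are Q3-normalized counts, open diamonds the same values divided by the negative probe of each AOI, and the vertical lines the median of all 15782 genes on each scale. The open diamonds shift with their median line by about the same amount for every gene, and Vegfa lies furthest above the median in CT against DG.

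The summed astrocyte markers were 543 to 746 in CT and 377 to 520 in DG, and the summed neuronal markers 1368 to 2362 and 1217 to 1599. The astrocyte markers did not move together: in CT against DG Slc1a2 (0.78) and Aldoc (0.87) were higher and Gfap (-1.02) lower. Against the negative probe the regions were closer, with median mean ratios of 6.19 in CT and 5.64 in DG for astrocyte markers and of 20.8 and 20.1 for neuronal markers. Their part in the regional difference of Vegfa was not tested. Across the 48 AOIs the genes whose log2 counts followed Vegfa most closely, among 7293 genes with a median ratio of at least 2, were Homer1 (Pearson r = 0.626), Tmem151b (0.618) and Mal2 (0.595). For Cldn5 they were Zdhhc3 (0.503), Ggcx (0.484) and Atic (0.465). These are descriptions over AOIs that share regions, mice and slides.

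The members hardly followed one another. Over the 28 pairs of members, r of the log2 Q3-normalized counts ran from -0.225 to 0.382 (median 0.0229), with the highest value for Cldn5 and Flt1. On ratios to the negative probe r ran from 0.052 to 0.629 (median 0.329), highest for Slc2a1 and Mfsd2a, since all ratios of an AOI share 1 denominator.

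The pathways were read from whole lists written with earlier results of these data known. Several lists hold members too, such as Vegfa, Kdr and Flt1 among the VEGF ligands and receptors. The counts and medians of those lists therefore partly repeat the members. The VEGF pathway had also been singled out by the study from these samples, so its lists are not independent evidence of a direction. Of 10 VEGF ligands and receptors 8 were measured, and in the 5 group comparisons 0 of 32 pairs of gene and region were called. The regional medians for FLT-SAL against GC-SAL lay between -0.25 and -0.03, against -0.01 to 0.03 for all genes. Among regions Vegfc, a lymphatic growth factor, was lower in FCT than in CA (-0.82, SE 0.153, limma adjusted p = 1.04e-05). On this Q3 scale the negative probe was lower in FCT too (median 13.9 against 18.9 in CA), and its part in the difference was not tested.

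Downstream of the receptors, 38 of 39 genes of VEGF intracellular signalling were measured. In FLT-SAL against GC-SAL 2 of 152 pairs rose and 0 fell, where 0.136% of all pairs of gene and region were called, and both were in DG: Ppp3ca, the catalytic subunit of calcineurin, by 0.60 (SE 0.133, limma adjusted p = 0.0191) and Ppp3r1, its regulatory subunit, by 0.61 (SE 0.14, adjusted p = 0.0308). Both are abundant in neurons. No gene of this list was called in the other 4 group comparisons. Among regions the called genes included protein kinases and adaptors that neurons also express, such as the protein kinase C gene Prkcb (-1.65, SE 0.0757) in DG against CA, where the kinases Mapk3 (0.83) and Map2k1 (0.62) were higher. The phosphoinositide kinase subunit Pik3r1 (0.72) and the adhesion kinase Ptk2 (0.63) were higher in FCT than in CA, and Ppp3ca (-0.81) and paxillin, Pxn (-0.65), lower.

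The remaining vascular lists, of which those of hypoxia, tight junctions, transport and general endothelium hold members, gave no call between groups. This held for all their measured genes. Of the listed genes, 6 of 7 were measured for the angiopoietin and Tie pathway, 14 of 16 for the hypoxia response and 11 of 14 for tight junctions and adhesion. For blood-brain barrier transport 18 of 20 were measured, for barrier Wnt signalling 11 of 16, for general endothelial markers 15 of 22 and for pericyte markers 8 of 11. Their regional medians in FLT-SAL against GC-SAL ran from -0.15 to 0.17 for the angiopoietin and Tie pathway, from -0.01 to 0.12 for hypoxia, from -0.13 to 0.11 for tight junctions, from -0.04 to 0.04 for transport, from 0.03 to 0.13 for Wnt signalling, from -0.09 to 0.03 for general endothelial markers and from -0.14 to 0.06 for pericytes. Between regions, Cd34, a surface protein of endothelium, was lower in DG than in CA (-0.78) and higher in CT than in DG (0.77). Fzd4, a Wnt receptor of the barrier, was lower in FCT than in CA (-0.59), Pgk1, a glycolytic enzyme, was higher in CT than in DG (0.64), and Spock2, a matrix proteoglycan, was higher in CT than in DG (0.90). Kl, a choroid plexus marker, was lower in FCT than in CA (-0.61). These differences, like those of the signalling genes above, are on the Q3 scale, where background differs between regions. Division by the negative probe moved the median of all genes from -0.07 to 0.64 in DG against CA. In FCT against CA it moved from -0.05 to 0.33 and in CT against DG from 0.00 to -0.39. The part of background in these list genes was not tested.

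Markers of other cells that passed the test between groups were mostly of myelin. In CT, Mobp and Cnp rose in FLT-SAL against GC-SAL (1.33 and 0.87), and Mobp and Mbp fell in FLT-BuOE against FLT-SAL (-1.22 and -0.81). The 6 oligodendrocyte markers summed in CT to between 1196 and 1696 counts in FLT-SAL mice and to between 667 and 727 in GC-SAL mice, while the 2 BuOE groups lay between 607 and 941. The 15 general endothelial markers summed there to between 390 and 474 in FLT-SAL mice and between 442 and 515 in GC-SAL mice, and the groups overlapped. Other markers called were Wfs1 in CA (0.82) and C1ql2 in DG (0.60) in FLT-SAL against GC-SAL, and Lamp5 in CT (1.19) in FLT-BuOE against FLT-SAL, while Mobp passed the interaction in CT (-1.64) and, in FLT-SAL against GC-SAL, the test on the mean of 4 regions (0.71). Their part in the values of the vascular genes was not tested.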

How the data were processed

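RNA was measured by GeoMx DSP with the mouse whole transcriptome probes in 48 AOIs of 12 mice. Reads were trimmed, stitched, matched to probe tags and deduplicated in the GeoMx NGS Pipeline by the authors, who deposited the raw counts of 20175 probes per AOI. The Q3-normalized signal that they also deposited, 1 table per region, is each AOI scaled to a common upper quartile. Probe counts use no genome build. The authors' own tables of fold changes and p-values for 12 comparisons were not used. All tables shared 1 upper quartile (40.02), so regions were compared on 1 scale.

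Dividing by the value of 1 count gave whole counts (within 0.02) for 99.98% of values. For 15777 genes these counts equalled those of exactly 1 deposited probe, and they served edgeR and DESeq2. The main test was limma 3.58.1 (R 4.3.3) with a mean-variance trend on log2(Q3-normalized count + 1), a scale that understates changes of low genes. The fits took the 12 AOIs of a region with the group as factor (8 residual degrees of freedom), the mean of 4 regions per mouse, all 48 AOIs with region and mouse, and differences between 2 regions of a mouse. Adjustment was by Benjamini-Hochberg over 15782 genes. Fits were tested on simulated data. Alternatives were edgeR 4.0.16, DESeq2 1.42.0, TMM, 2 other pseudocounts, a filter, division by or subtraction of the negative probe, and leaving out each mouse. Subtraction set values under the probe to a floor and added a larger constant than 1 before the logarithm. The named genes were the members, list genes called in any test (some are not reported here), and the 3 genes most correlated with members whose median ratio was at least 2. The members and lists were chosen with earlier results of these data known. P-values between groups measure the spread between the 3 mice of a group, pooled over the groups. The mice of a group shared a slide. P-values between regions measure the spread left after region and mouse were fitted, which includes group differences that vary by region. With 3 against 3 mice an exact permutation test cannot go below p = 0.1, so none was used. The ratios to the negative probe carry its counting error too.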

Additional observations from a re-analysis of the deposited data

Results flagged for a closer look

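Flt1 and Slc2a1 differed in opposite directions in 2 regions under the same comparison, with no overlap between the 3 mice of each group in either region. The differences between the regions were not tested. For FLT-BuOE against GC-BuOE, Flt1 was lower in CA (23.5, 20.8 and 20.9 Q3-normalized counts against 33.7, 33.4 and 29.2) and higher in DG (21.7, 28.8 and 28.9 against 15.6, 20.0 and 14.5), so that the change in CA minus that in DG was -1.18 on the log2 scale. In FCT Flt1 was again lower (21.4, 18.7 and 26.3 against 29.2, 28.2 and 32.7), and the change in DG minus that in FCT was 1.07. In CA and FCT the negative probe was lower in FLT-BuOE than in GC-BuOE mice too. As ratios to it, the Flt1 groups overlapped in CA but not in DG or FCT.

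For GC-BuOE against GC-SAL, Flt1 was lower in DG (20.7, 20.5 and 29.02 in GC-SAL mice) and higher in FCT (27.4, 25.1 and 23.5 in GC-SAL mice), a difference of -0.70. The GC-BuOE mice are shared with the comparison above. Against the negative probe the Flt1 groups overlapped in FCT but not in DG. In FCT the ratios were 2.121 to 2.265 in GC-BuOE mice and 1.481 to 2.14 in GC-SAL mice. Slc2a1 was higher with BuOE in CA (27.4, 26.7 and 31.4 against 21.6, 22.9 and 25.2) and lower in FCT (19.5, 20.0 and 24.6 against 27.4, 29.04 and 30.6), a difference of 0.71. In CA all values of Slc2a1 were under 1.5 times the negative probe. The search covered 8 genes, 4 comparisons and 6 pairs of regions, and 9.58% to 12.6% of all genes were without overlap in a single region. How often other genes give such opposed pairs was not counted.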

How the results depend on the processing

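In every comparison of groups, within regions and on means of 4 regions, 0 members were called under each alternative run. The replicate block (group and replicate number) gave 0 members in each. Same-numbered mice of different groups deviated together only weakly (median correlation 0.0132 to 0.0313 by region, other pairs -0.0103 to -0.00342). Regions of the same mouse had a median of 0.0237, so such values cannot tell paired from unpaired mice. The same-numbered mice share a number and nothing more is known. With that block the averaged Vegfa difference had an adjusted p of 0.0366, inside the fold threshold. All-gene counts did move: FLT-SAL against GC-SAL gave 86 calls over the 4 regions with limma, 182 with edgeR, 108 with DESeq2, 144 with the block, 14 after division by the negative probe and 6 without the trend. Leaving out 1 mouse gave 36 to 126, with 36, 41 and 43 without FLT-SAL replicates 1, 2 and 3 and 49 without GC-SAL replicate 1. FLT-BuOE against FLT-SAL gave 17, then 292 after division and 7 to 89 without 1 mouse, with 7 and 38 without FLT-SAL replicates 2 and 3, 10 and 89 without FLT-BuOE replicates 1 and 3, and 30 without GC-SAL replicate 3.

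Between regions, members called in DG against CA were 0 in the main test, 4 after division, 5 after subtraction (chosen after seeing the data), 1 in ground saline mice only (Mfsd2a, 0.75) and 0 to 1 without 1 mouse. In FCT against DG they were 0, then 1 after division, 2 after subtraction and 0 to 1 without 1 mouse. In CT against DG they were 1, then 2 after subtraction and 0 in ground saline mice only, where Vegfa was 0.64 (adjusted p = 0.116). Subtraction gave 3 in FCT against CA and 2 in CT against CA. Vegfa in FCT against DG passed without FLT-BuOE replicate 2, GC-BuOE replicate 1 or 2, or GC-SAL replicate 2 (0.59 to 0.65), and in DG against CA without GC-SAL replicate 2 (-0.60). Among the regional differences that passed the adjusted p, the sign changed for Vegfa in DG against CA after division (0.21) and for Flt1 in DG against CA after division (0.36) and subtraction (0.15). Others that had not passed it also changed sign, as given above for division. Division shifts all genes by construction. Other causes were not tested. Low counts near background limit all 8 genes, most in CA.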
